A study of Mus musculus with 9 samples.

Results

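The liver breaks down tryptophan and tyrosine through 2 short chains of enzymes, and 9 genes that encode steps of these chains were followed here in livers of mice with altered SND1. The genes were Tdo2, Kmo, Kynu, Haao and Acmsd for tryptophan and Tat, Hpd, Hgd and Fah for tyrosine. They were picked by symbol, and all 9 were found among the 19944 genes of the deposited table. SND1 is a nuclease-like protein with a Tudor domain, a fold that reads methylated arginine. The livers came from Snd1 knockout (KO) mice, from mice with a mutant Snd1 Tudor domain knocked in (KI) and from wild type (WT) mice, with 3 libraries each. All animals were FVB males aged 60 days on normal chow. The labels do not say how the KO and KI alleles were made or which animals shared a litter, so p-values measure only the spread between these samples.

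In the tryptophan chain, tryptophan dioxygenase (Tdo2) opens the indole ring, and kynurenine monooxygenase (Kmo), kynureninase (Kynu) and hydroxyanthranilate dioxygenase (Haao) carry the product toward quinolinate, a precursor of NAD. Acmsd, a decarboxylase, draws the Haao product away from NAD and into full oxidation. In the tyrosine chain, tyrosine aminotransferase (Tat) removes the amino group, hydroxyphenylpyruvate dioxygenase (Hpd) forms homogentisate, homogentisate dioxygenase (Hgd) opens its ring and fumarylacetoacetase (Fah) splits the last intermediate into fumarate and acetoacetate. Tdo2 and Tat are textbook glucocorticoid-induced genes of hepatocytes, and loss of human FAH or HPD causes forms of tyrosinaemia.

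Each value is a normalized count, that is, gene read counts the authors divided by 1 size factor per library. Recovered totals were 59678412 to 66384374 reads per library. Snd1 itself had 227, 414 and 359 normalized counts in KO_1, KO_2 and KO_3, 5373, 7941 and 5595 in KI_1, KI_2 and KI_3, and 6951, 8446 and 6512 in WT_1, WT_2 and WT_3. The labels call the cells hepatocytes, and the hepatocyte marker Alb was at 1767535 or more in every library. The 7 hepatocyte markers found took 4.92%, 7.67% and 4.88% of the summed values in KI_1, KI_2 and KI_3. The share was 8.03% to 9.17% in KO and 7.21% to 9.29% in WT. All 10 markers of Kupffer cells and macrophages were also detected in every library. In such bulk samples fewer cells of a type and less RNA per cell cannot be told apart. Markers of exocrine pancreas took 0.49% of the summed values in KI_1, 5.61% in KI_3 and 1.18% in WT_3, and 0.00522% or less in each of the other 6 libraries.

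The promoters of 4 members are shown. Tdo2 and Kmo were the 2 of 9 members whose KO and WT libraries did not overlap, as was so for 29.1% of all genes tested. Tat and Hpd are neighbouring steps whose ratio did not overlap between mutant and WT libraries. That ratio was chosen after the values had been seen, and how often ratios of other gene pairs separate the groups was not computed. Each sequence is 250 bases before to 50 bases after the RefSeq start site on build GRCm38.p6, read 5′ to 3′ on the gene's strand, at chr3:81975679-81975978 (reverse strand), chr1:175631943-175632242 (forward), chr8:109990186-109990485 (forward) and chr5:123182674-123182973 (reverse). Capitals mark exact matches, on either strand, to TATAAA, a core promoter element, to CCAAT, bound by NF-Y, to TGTTCT, bound by the glucocorticoid receptor, and to the other motifs named after the sequences.
Tdo2: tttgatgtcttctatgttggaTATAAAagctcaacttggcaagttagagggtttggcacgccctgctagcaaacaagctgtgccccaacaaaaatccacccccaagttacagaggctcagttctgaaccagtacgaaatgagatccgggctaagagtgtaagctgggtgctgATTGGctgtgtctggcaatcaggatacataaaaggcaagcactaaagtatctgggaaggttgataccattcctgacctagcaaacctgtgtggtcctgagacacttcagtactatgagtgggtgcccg
Kmo: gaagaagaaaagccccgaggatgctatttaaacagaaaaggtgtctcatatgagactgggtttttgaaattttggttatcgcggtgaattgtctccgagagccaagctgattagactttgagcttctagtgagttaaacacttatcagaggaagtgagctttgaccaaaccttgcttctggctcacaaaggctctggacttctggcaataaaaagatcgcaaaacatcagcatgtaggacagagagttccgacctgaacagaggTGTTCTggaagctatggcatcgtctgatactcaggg
Tat: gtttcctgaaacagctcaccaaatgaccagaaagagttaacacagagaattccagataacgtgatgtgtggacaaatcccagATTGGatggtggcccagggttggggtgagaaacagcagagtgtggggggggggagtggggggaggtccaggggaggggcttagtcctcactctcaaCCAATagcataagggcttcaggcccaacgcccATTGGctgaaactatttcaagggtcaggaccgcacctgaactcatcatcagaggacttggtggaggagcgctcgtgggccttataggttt
Hpd: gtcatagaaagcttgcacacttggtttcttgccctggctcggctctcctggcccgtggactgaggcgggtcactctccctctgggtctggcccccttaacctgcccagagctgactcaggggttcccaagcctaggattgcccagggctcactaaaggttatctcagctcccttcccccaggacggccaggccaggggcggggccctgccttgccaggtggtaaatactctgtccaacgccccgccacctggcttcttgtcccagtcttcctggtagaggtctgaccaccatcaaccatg
The Tat window held 3 CCAAT matches, at bases -168, -72 and -40 from the start site, and the Tdo2 window held 1 at -78 and a TATAAA at -229. Kmo had its only match, a TGTTCT, 15 bases after the start, and Hpd had none, so its run carries no capitals. Of the 9 members, 8 had a promoter in the RefSeq table. CCAAT occurred in 3 of these 8 and in 37.4% of 32851 promoters of the same length, TATAAA in 2 of 8 and 13.6%, and TGTTCT in 2 of 8 and 19.0%. GTTAAT, part of the HNF1 site, occurred in 1 of 8 and 7.10%, and TTGCNNAA, a C/EBP site, in 1 of 8 and 10.8%. CAAAGTCC, an HNF4 site, occurred in 0 of 8 and 1.42%, and the full palindromic glucocorticoid receptor site in 0 of 8 and 0.00913%. No overlap between matches occurred in the 4 windows shown. These matches are a description of letters only.

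The members were among the strongly expressed genes of the organ. Together they took 0.422% to 0.777% of the summed values in KO, 0.592% to 0.859% in KI and 0.587% to 0.878% in WT. Levels of different genes were compared as normalized counts per kilobase of exon. On that scale Tat led in KO and KI, with 45298 ± 18857 in KO and 58872 ± 16140 in KI (SD over 3 libraries), and came after Hpd in WT, where Hpd had 47658 ± 10916 and Tat 39570 ± 14277. Tdo2 followed, with 22515 ± 6650 in KO, 29304 ± 1077 in KI and 36278 ± 5543 in WT. In KI every Tdo2 library lay below every Hpd and Tat library, in KO every Tdo2 library lay just below every Tat library but not below every Hpd library, and in WT the ranges of all 3 overlapped.

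Fah and Hgd formed the next tier, with 10689 ± 3733 and 8841 ± 4896 per kilobase in KO, 12420 ± 2226 and 11303 ± 1761 in KI, and 12934 ± 1719 and 12758 ± 1300 in WT. Haao and Kmo followed, at 3288 ± 1091 and 3627 ± 614 in KO, 3673 ± 445 and 4201 ± 409 in KI, and 4719 ± 520 and 4716 ± 75.4 in WT. Within each of these pairs the library ranges overlapped in every group. Kynu stood at 1816 ± 740 in KO, 1527 ± 332 in KI and 1787 ± 86.1 in WT, and Acmsd at 928 ± 715 in KO, 1272 ± 430 in KI and 1030 ± 354 in WT, the lowest mean of the 9 in each group. Acmsd was also the only member with exons that overlap another annotated gene, by 94 bases of the antisense gene 2900009J06Rik.

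Loss of SND1 was examined first, by comparing KO with WT. No member passed the test, and 8 of the 9 had a negative log2 fold change, with a median of -0.41 against 0 over all genes tested. With limma (adjusted p under 0.05) 0 of the 9 members were called, where 8.83% of the 15238 genes tested were. At an unadjusted p under 0.05 there were 4 members, Tdo2, Kmo, Haao and Hpd, where 25.0% of all genes were. edgeR called 0 members, where it called 7.42% of genes, and DESeq2 called 1, Tdo2 (DESeq2 adjusted p = 0.0132), where it called 13.8% of genes.

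**Figure D1:**
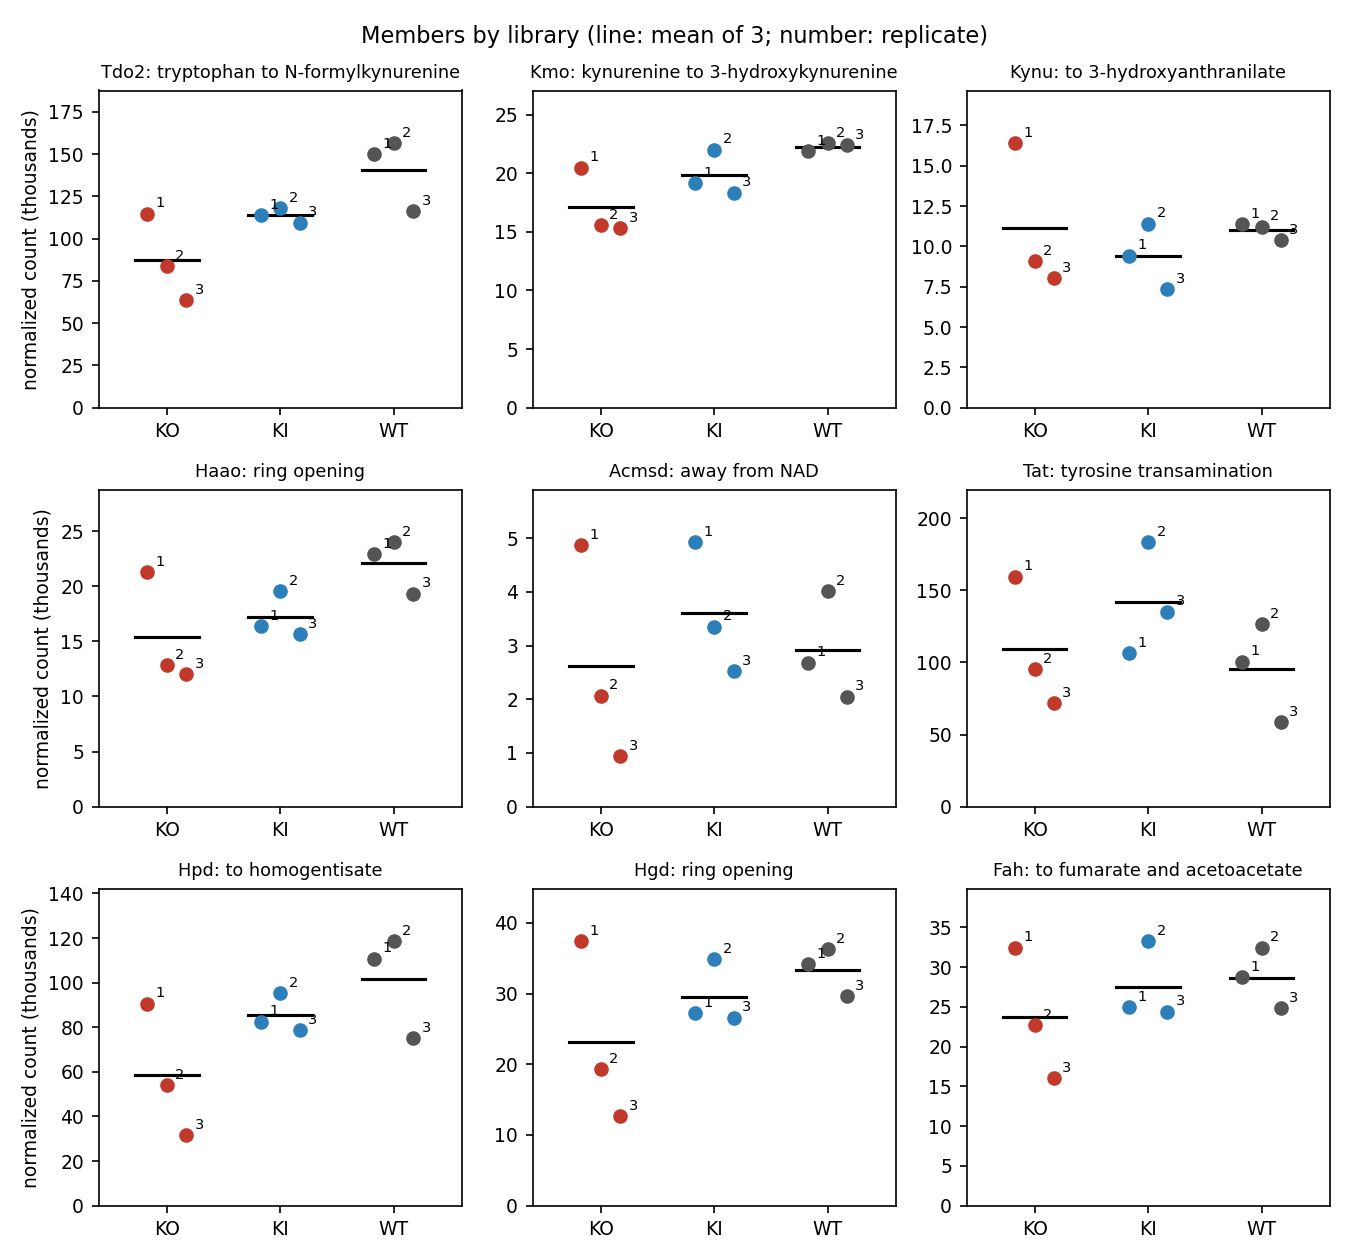
Normalized counts divided by 1000 (vertical axes, from 0) of the 9 members in KO, KI and WT livers; points are libraries with their replicate number and lines are means of 3. KO_1 is the highest KO library in every panel, and KO_3 is the lowest KO library in every panel.

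Tdo2, the entry step of the tryptophan chain, had 114772, 83848 and 63518 normalized counts in KO_1, KO_2 and KO_3, 113838, 117856 and 109496 in KI_1, KI_2 and KI_3, and 149801, 156339 and 116242 in WT_1, WT_2 and WT_3. Every KO library lay below every WT library, though KO_1 and WT_3 were close. The log2 fold change was -0.72 ± 0.25 in KO against WT (SE, limma adjusted p = 0.112). Kmo, the flavoenzyme of the mitochondrial outer membrane, had 20480, 15593 and 15325 in KO, 19140, 22029 and 18361 in KI, and 21875, 22556 and 22398 in WT. Its KO libraries also lay below every WT library, and the WT libraries were nearly equal (log2 fold change -0.39 ± 0.14, limma adjusted p = 0.122). Groups did not overlap for these 2 of 9 members, both lower in KO, where 29.1% of all genes tested had groups that did not overlap and 14.2% did so with KO lower.

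Kynu, which cleaves hydroxykynurenine, had 16386, 9078 and 8028 normalized counts in KO, 9426, 11412 and 7327 in KI, and 11360, 11220 and 10381 in WT. KO_1 was above and the other KO libraries below every WT library, and the fitted log2 fold change was -0.05 ± 0.25 (limma adjusted p = 0.931), or 0.15 without KO_3 and 0.03 with edgeR. Haao had 21267, 12879 and 12027 in KO, 16385, 19558 and 15636 in KI, and 22937, 23990 and 19348 in WT (log2 fold change -0.56 ± 0.21, limma adjusted p = 0.127). Here KO_1 lay inside the WT range, and KO_2 and KO_3 lay below it. Acmsd varied most, with 4871, 2070 and 941 in KO, 4924, 3353 and 2530 in KI, and 2685, 4012 and 2050 in WT. Its KO libraries spanned both the highest WT value and the lowest, and its log2 fold change was -0.41 ± 0.50 (limma adjusted p = 0.678), or 0.18 without KO_3.

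Of the tyrosine chain, Tat had 159502, 95472 and 71850 normalized counts in KO, 106361, 183200 and 135197 in KI, and 100575, 126474 and 58446 in WT. Groups overlapped throughout, and Tat was the one member with a positive log2 fold change in KO (0.19 ± 0.38, limma adjusted p = 0.812), which turned to -0.13 without KO_1 or without WT_3. Hpd had 90568, 53962 and 31545 in KO, 82509, 95188 and 78802 in KI, and 110774, 118505 and 74967 in WT. KO_1 lay above WT_3, so the groups overlapped, and the log2 fold change of -0.89 ± 0.35 was the largest in size among the members (limma adjusted p = 0.142).

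The last steps of the tyrosine chain showed the same order of KO libraries. Hgd had 37400, 19293 and 12666 normalized counts in KO, 27198, 34862 and 26608 in KI, and 34147, 36303 and 29639 in WT, a log2 fold change of -0.67 ± 0.32 in KO (limma adjusted p = 0.231). KO_1 exceeded every WT library and KO_2 and KO_3 were below all of them. Fah had 32459, 22665 and 15997 in KO, 24993, 33237 and 24410 in KI, and 28770, 32459 and 24835 in WT (log2 fold change -0.33 ± 0.24, limma adjusted p = 0.456). KO_1 equalled WT_2 to within rounding for Fah, and KO_3 had the lowest value of the 9 libraries.

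**Figure D2:**
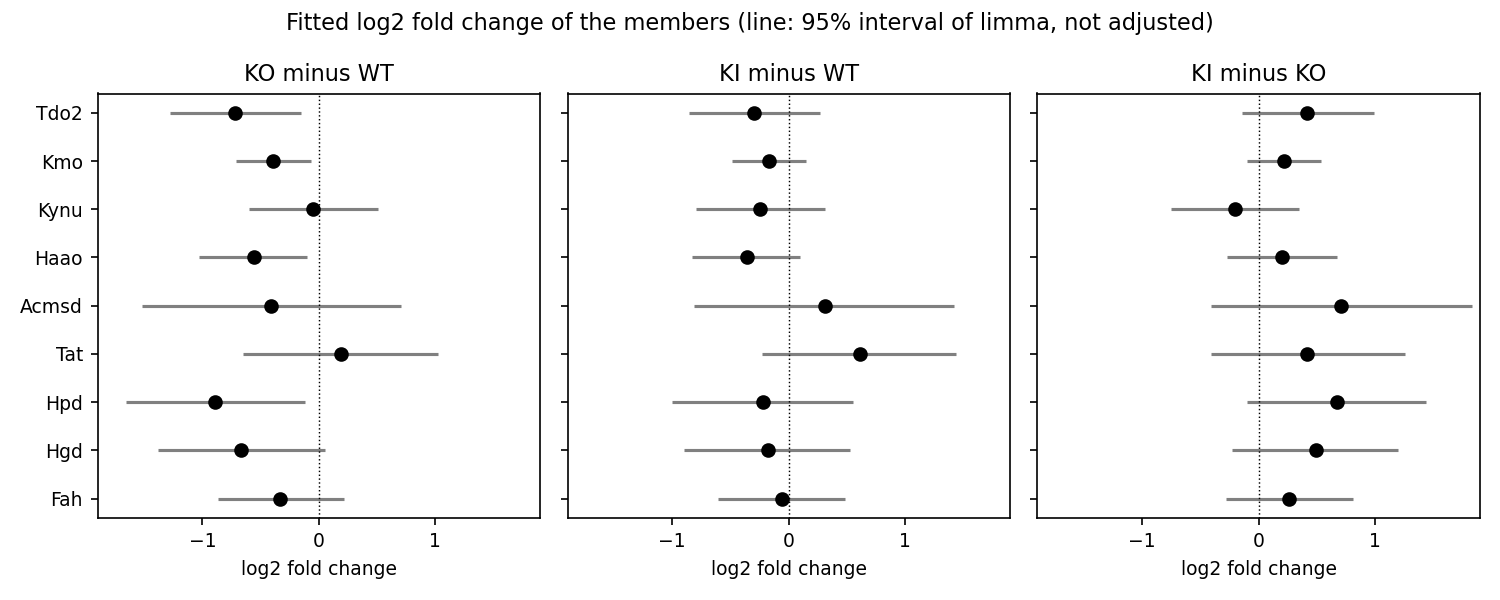
Fitted log2 fold changes of the 9 members (horizontal axes) in KO minus WT, KI minus WT and KI minus KO; points are limma estimates and lines their 95% intervals without adjustment. In KO minus WT the intervals of Tdo2, Kmo, Haao and Hpd lie below 0, and in the other comparisons every interval crosses 0.

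The KO libraries stood apart from one another. Averaged over the 9 members, the log2 deviation from the WT mean came to 0.22 for KO_1, -0.52 for KO_2 and -0.98 for KO_3, and -0.26 to 0.21 in the WT libraries. KO_3 had the lowest value of all 9 libraries for 7 members, and KO_1 was above every WT library for 5 (for Fah by less than rounding). The within-group SD on the log2 scale had a median over the members of 0.55 in KO, 0.22 in KI and 0.19 in WT, beside 0.20, 0.14 and 0.12 over the 5507 genes with a mean of at least 1000.

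Without KO_1, limma called 5 of the 9 members lower in KO and 0 higher, where 9.19% of 15303 genes were called lower. They were Tdo2 (log2 fold change -0.94, adjusted p = 0.0109), Kmo (-0.53, 0.0126), Haao (-0.82, 0.00374), Hpd (-1.27, 0.0101) and Hgd (-1.09, 0.00517). Leaving out any other single library gave 0 members called. Without the 3 libraries that hold pancreatic transcripts all 9 log2 fold changes were negative, with a median of -0.63, and 0 were called.

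The acute phase genes, most of which encode secreted proteins of the inflamed liver, also differed between the KO libraries. The 20 genes of that list took 6.61% of the summed values in KO_1, 16.8% in KO_2 and 17.8% in KO_3, 1.15% to 1.69% in KI and 1.39% to 1.52% in WT, and 18 of the 20 were called higher in KO. KO_1 had the lowest KO value for 19 of the 20, all but C4b, and 8 of the 20 were lowest in KO_1 and highest in KO_3. Over all genes tested, 4.63% were called higher in KO. Of 8 markers of neutrophils and monocytes found, 1 was called higher in KO. Their summed level ran from 243 to 1850 in KO and from 129 to 382 in WT, with Mmp8 at 0 in WT_2. Of 10 markers of Kupffer cells and macrophages 3 were called higher, and the sums were 21902 to 42696 in KO and 14598 to 26410 in WT, with no marker at 0. The part of any of these in the members' values was not tested.

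**Figure D3:**
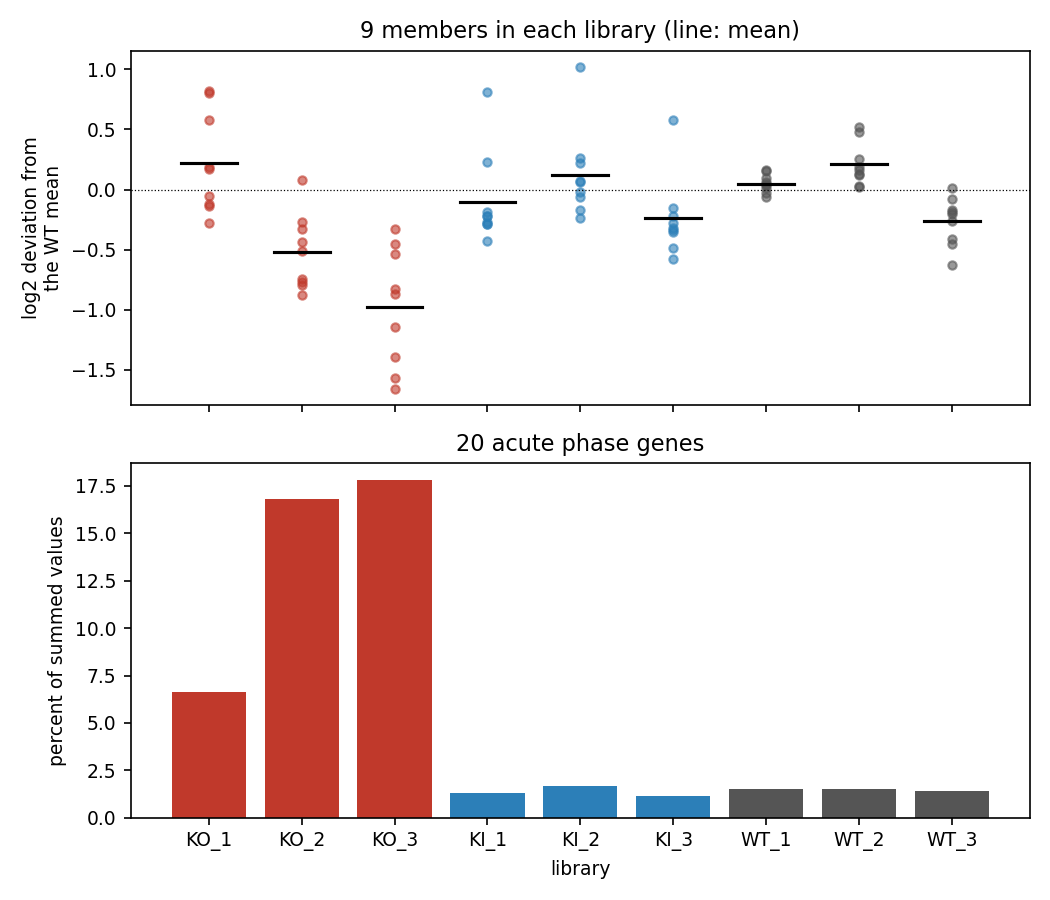
Upper panel, log2 deviation of each of the 9 members from its WT mean in every library, with the mean as a line; lower panel, share of the summed values, in percent, taken by 20 acute phase genes. The mean deviation runs from 0.22 in KO_1 to -0.98 in KO_3, while the acute phase share is 6.61% in KO_1 and 17.8% in KO_3.

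The ratio of neighbouring steps does not depend on the scaling of a library, and was taken for the 7 pairs that follow each other in the chains, downstream over upstream and per kilobase. These ratios were chosen after the members' values had been seen. How often ratios of other gene pairs separate the groups was not computed. For single genes, groups did not overlap for 29.1% in KO against WT, 19.6% in KI against WT and 26.4% in KI against KO. Hpd over Tat had a log2 ratio of -0.64, -0.65 and -1.01 in KO_1, KO_2 and KO_3, -0.19, -0.77 and -0.60 in KI_1, KI_2 and KI_3, and 0.32, 0.08 and 0.54 in WT_1, WT_2 and WT_3. Every mutant library thus had more Tat than Hpd per kilobase, and every WT library had more Hpd than Tat per kilobase. The sign depends on the exon lengths used, 2405 bases for Tat and 2128 for Hpd. Before division by length, WT_2 had 126474 normalized counts for Tat and 118505 for Hpd. The difference was -1.08 in KO against WT and -0.83 in KI against WT, each with p = 0.1 by a two-sided exact permutation test. With 3 libraries a group 0.1 is the smallest p possible, and adjusted over the 21 ratio comparisons it was 0.3 (exact permutation). Over all libraries left out in turn the difference stayed between -1.19 and -0.95 in KO and between -1.0 and -0.71 in KI. Both differences were -0.97 without the libraries that hold pancreatic transcripts, which left 1 KI library. Both comparisons use the same WT libraries.

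Haao over Kynu also separated KO from WT, with log2 ratios of 0.77, 0.90 and 0.98 in KO, 1.19, 1.17 and 1.49 in KI, and 1.41, 1.49 and 1.29 in WT. KO lay below both other groups, by 0.51 on the log2 scale against WT (difference -0.51, exact permutation p = 0.1, adjusted 0.3). Kynu over Kmo had ratios of -0.70, -1.16 and -1.31 in KO, -1.40, -1.33 and -1.71 in KI, and -1.33, -1.39 and -1.49 in WT, with KO just above WT (difference 0.34, exact permutation p = 0.1, adjusted 0.3). KI differed from KO by 0.40 for Haao over Kynu and by -0.42 for Kynu over Kmo, again at p = 0.1 (exact permutation, adjusted 0.3). Both ratios contain Kynu, so their differences are not independent. Fah over Hgd was 0.12, 0.17 and 0.11 in KI and -0.01, 0.08 and -0.02 in WT, so these groups did not overlap either (difference 0.12, exact permutation p = 0.1, adjusted 0.3). Kmo over Tdo2, Acmsd over Haao and Hgd over Hpd overlapped between the groups in all 3 comparisons.

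**Figure D4:**
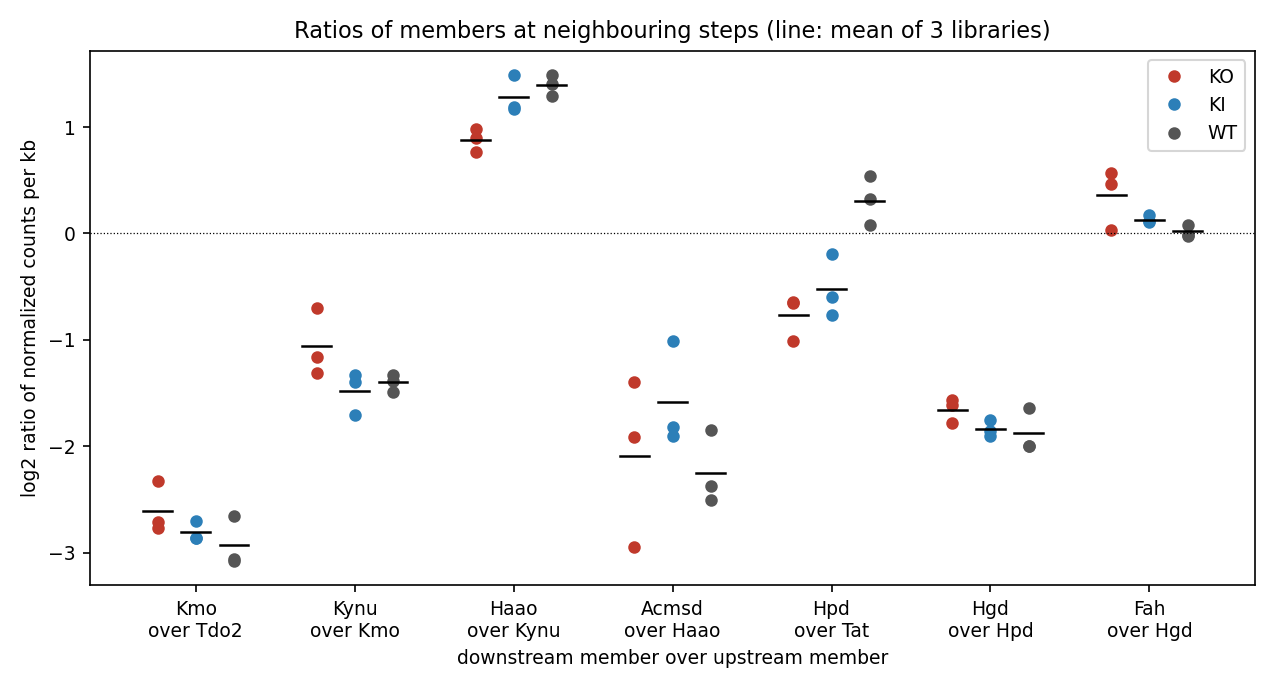
Log2 ratio of normalized counts per kilobase (vertical axis) for 7 pairs of members at neighbouring steps, by group; points are libraries and lines are means of 3. Hpd over Tat is below 0 in the 6 KO and KI libraries and above 0 in the 3 WT libraries.

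KI against WT asks what the mutated Tudor domain changes. limma called 0 of the 9 members, and 0 had an unadjusted p under 0.05, where 0.0263% of all genes were called and 11.6% had an unadjusted p under 0.05. edgeR and DESeq2 also called 0 members, where they called 0.00633% and 2.57% of genes. Groups overlapped for every member, where 19.6% of all genes had groups that did not. The median log2 fold change of the members was -0.18 against 0 over all genes, with 7 negative, among them Fah at -0.06, which was 0.12 without the libraries that hold pancreatic transcripts. Tat had the largest positive one, 0.61 ± 0.38 (95% interval -0.23 to 1.44, limma adjusted p = 0.573), and Haao the most negative, -0.36 ± 0.21 (95% interval -0.83 to 0.10, limma adjusted p = 0.554). Tdo2 was narrow in KI, with an SD of 4181 around a mean of 113730, against 140794 ± 21512 in WT (SD, n = 3 each). For Acmsd the 95% interval of the log2 fold change ran from -0.81 to 1.42.

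Compared directly, KI and KO did not differ past the threshold for any member. limma called 0 of 9 members and 0 had an unadjusted p under 0.05, where 8.45% of all genes were called and 24.9% had an unadjusted p under 0.05, and edgeR and DESeq2 called 0 members, where they called 7.25% and 13.6% of genes. No member had groups that did not overlap, against 26.4% of all genes. The fitted log2 fold changes of KI over KO were positive for 8 of 9 members with a median of 0.42 (0.01 over all genes; 0.15 and -0.26 when libraries were scaled to an equal total outside acute phase and pancreas genes, where Kmo, Haao and Fah turned negative), led by Acmsd (0.71 ± 0.50, limma adjusted p = 0.418) and Hpd (0.67 ± 0.35, limma adjusted p = 0.266). Kynu was the exception at -0.20 ± 0.25 (limma adjusted p = 0.673). Without KO_1, 3 members were called higher in KI than in KO, where 8.06% of genes were, namely Acmsd (1.31, limma adjusted p = 0.0474), Hpd (1.05, 0.0263) and Hgd (0.91, 0.0135).

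Several other enzymes of the tryptophan chain passed the test in KO against WT. Of 9 further genes tested, 4 were called lower in KO, 0 higher and 5 not called, with a median log2 fold change of -0.83, where 4.20% of all genes were called lower and 4.63% higher. edgeR called 2 of the 9 and DESeq2 called 5, all lower, where they called 7.42% and 13.8% of all genes in either direction. The count was 6 without KO_1, where 9.19% of all genes were called lower. It was 3 without KI_2 and 2 without any other single library. Afmid, the formamidase between Tdo2 and Kmo, fell to 1081, 498 and 440 normalized counts in KO, against 2498, 2826 and 2008 in WT, and had 2171, 2289 and 2237 in KI. All KO libraries lay below the other groups, with KO_1 the highest of them, and the log2 fold change was -1.97 ± 0.28 (SE, limma adjusted p = 0.00349). Kyat3, an aminotransferase that turns kynurenine into kynurenic acid, fell to 5371, 3291 and 4316 in KO, against 10685, 7698 and 7438 in WT (log2 fold change -1.0, limma adjusted p = 0.0115).

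Aadat, another kynurenine aminotransferase, had 7569, 3168 and 2468 normalized counts in KO and 8318, 8328 and 10314 in WT (log2 fold change -1.20, limma adjusted p = 0.0493). Gcdh, the glutaryl-CoA dehydrogenase of the oxidative branch, fell to 16860, 11409 and 8984 in KO, against 21614, 22729 and 19942 in WT (limma adjusted p = 0.0372). For both genes KO_1 was nearest to WT. Without the libraries that hold pancreatic transcripts only Afmid of these 4 was called (limma adjusted p = 0.0469). Afmid was called in all 22 alternatives, Kyat3 in 21, Gcdh in 10 and Aadat in 7. Qprt, which passes quinolinate on to NAD and was not called, had 12835, 10260 and 8035 in KO and 7332, 8863 and 7413 in WT (log2 fold change 0.38, limma adjusted p = 0.233). Ido2 and Kyat1 were not called either, with log2 fold changes of -0.40 and 0.07, and Ido1 and Tph1 were not analysed here. KI exceeded KO for Afmid, Kyat3 and Aadat (log2 fold changes 1.85, 1.48 and 1.41, limma adjusted p = 0.00495, 0.00212 and 0.0286). They were the 3 of 9 called in that comparison, where 8.45% of all genes were. Of 22 alternatives, Afmid was called in 20, Kyat3 in 21 and Aadat in 11. Leaving out the libraries that hold pancreatic transcripts left 1 KI library and gave log2 fold changes of 1.89, 1.42 and 1.51. In KI against WT limma, edgeR and DESeq2 called 0 of 9, where they called 0.0263%, 0.00633% and 2.57% of all genes. For 1 of the 9, Kyat3, the unadjusted p was under 0.05, where 11.6% of all genes had one. Kyat3 had 12346, 11323 and 11844 normalized counts in KI (log2 fold change 0.48, limma adjusted p = 0.37). Groups did not overlap for 2 of the 9, Kyat3 (higher in KI) and Ido2 (lower), where 19.6% of all genes had such groups.

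On the phenylalanine and tyrosine side, 3 of 11 further genes were called lower in KO and 0 higher, with a median log2 fold change of -0.43, where 4.20% of all genes were called lower. Gchfr, which encodes the feedback regulator of GTP cyclohydrolase, fell to 1754, 1164 and 1255 normalized counts in KO, against 2555, 2713 and 2524 in WT (log2 fold change -0.92, limma adjusted p = 0.00509). Gch1, the cyclohydrolase that starts synthesis of the cofactor tetrahydrobiopterin, fell to 3127, 2095 and 1856 in KO, against 3949, 3417 and 3873 in WT (limma adjusted p = 0.0393). Gstz1, the isomerase between Hgd and Fah, fell to 34999, 26951 and 24113 in KO, against 52368, 45736 and 44432 in WT (log2 fold change -0.74, limma adjusted p = 0.0264). In each of the 3 genes every KO library lay below every WT library.

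Qdpr and Pcbd1, which recycle tetrahydrobiopterin, were not called and had log2 fold changes of -0.63 and -0.43 (limma adjusted p = 0.142 and 0.121). Without the libraries that hold pancreatic transcripts 0 of these 11 genes were called. The count of lower genes was 5 without KO_1, where 9.19% of all genes were called lower. It was 1 without any one of KO_2, KO_3, WT_1, WT_2 and WT_3. edgeR called 2, where it called 7.42% of all genes. Gchfr was called in 21 of 22 alternatives, Gstz1 in 13 and Gch1 in 9.

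NAD genes fed by the tryptophan chain or working beside it went in both directions. Of 11 tested, 3 were called lower in KO, 1 higher and 7 not called, where 4.20% and 4.63% of all genes were. Nampt, the salvage enzyme that uses nicotinamide, fell to 2778, 3266 and 2938 normalized counts in KO, against 5791, 6122 and 7352 in WT (log2 fold change -1.10, limma adjusted p = 0.00111). Nmrk1, the nicotinamide riboside kinase, fell to 475, 448 and 463 in KO, against 1026, 1091 and 1287 in WT (log2 fold change -1.29, limma adjusted p = 0.00193). Nnmt, which methylates nicotinamide for disposal, rose to 4733, 9302 and 5785 in KO, against 1858, 1763 and 1142 in WT (log2 fold change 2.03, limma adjusted p = 0.00179). Aox1, an aldehyde oxidase gene, had 3096, 1576 and 1426 in KO and 4295, 5109 and 3767 in WT (limma adjusted p = 0.023). Nampt and Nmrk1 had KO libraries close to one another, KO_1 included. Nampt, Nmrk1 and Nnmt were called in KO against WT under all 22 alternative settings, and Aox1 under 16 of them. The count of lower NAD genes was 2 without any one of KO_2, KO_3, WT_1 and WT_2.

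**Figure D5:**
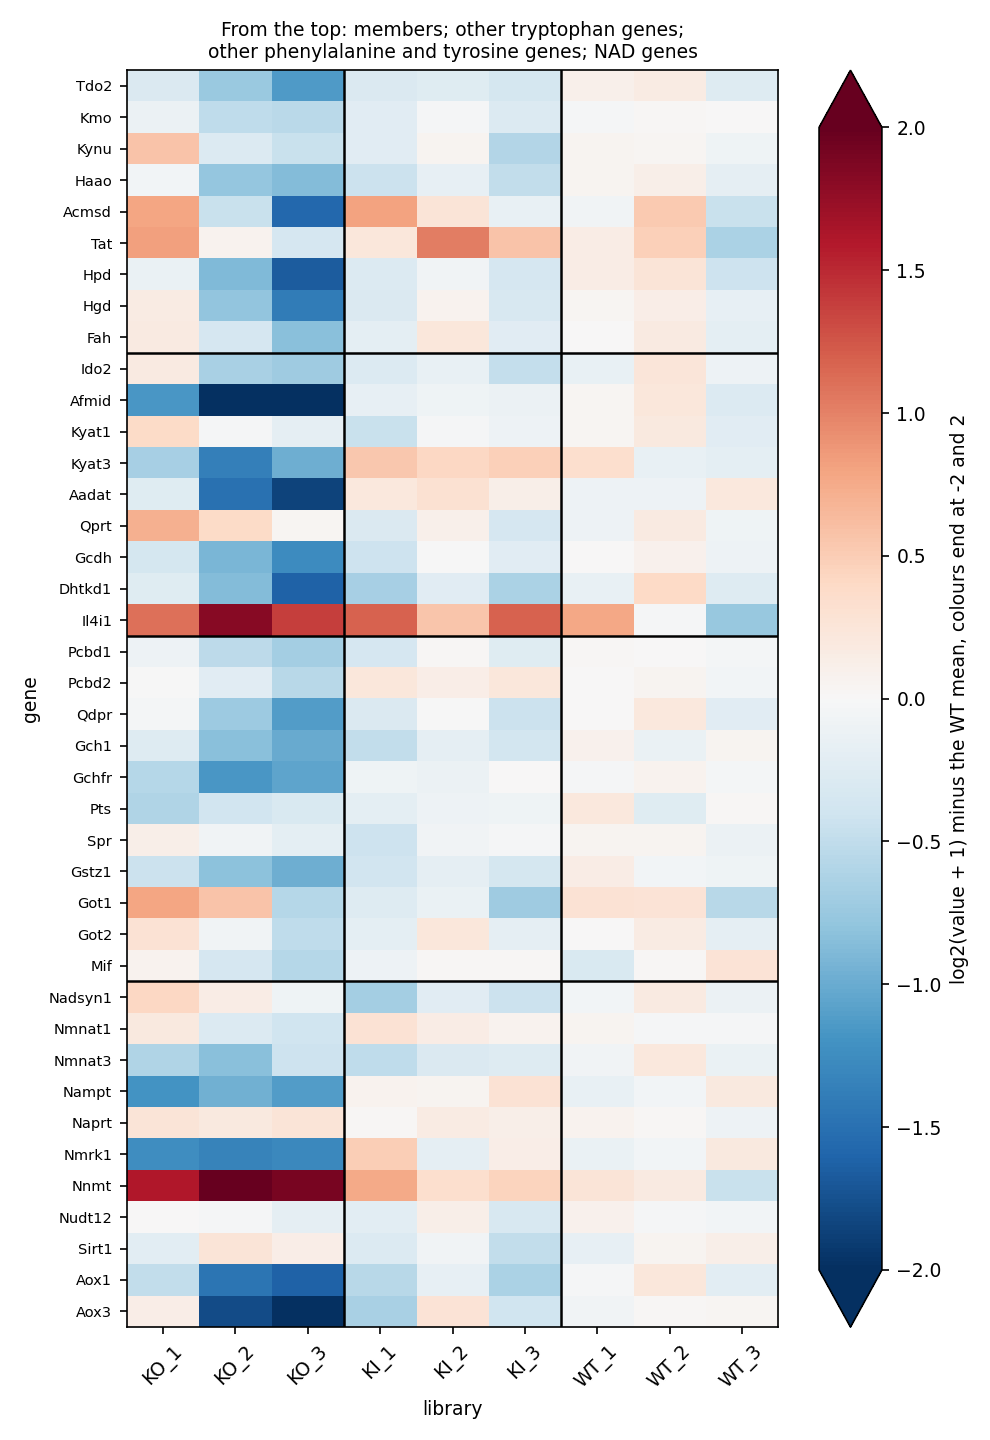
Log2 deviation from the WT mean (colour, blue lower and red higher, ending at -2 and 2) of the 9 members and of the further tryptophan, phenylalanine and tyrosine, and NAD genes (rows) in the 9 libraries (columns). Nampt and Nmrk1 are blue in all 3 KO libraries, while Hpd and Hgd are pale in KO_1 and blue in KO_2 and KO_3.

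Of 29 enzymes that break down other amino acids, 4 were called lower in KO, 1 higher and 24 not called, where 4.20% of all genes were called lower and 4.63% higher. Their median log2 fold change was -0.54. Sdsl, a serine dehydratase-like gene, rose to 660, 1293 and 789 normalized counts in KO, against 197, 330 and 275 in WT (limma adjusted p = 0.00421). The alanine aminotransferase gene Gpt2, the hydroxyproline pathway gene Hoga1 and the valine pathway genes Hibadh and Hibch fell, with log2 fold changes of -0.97, -0.83, -1.0 and -0.46 (limma adjusted p = 0.0135, 0.0274, 0.0175 and 0.0469). The count of lower genes was 20 without KO_1, where 9.19% of all genes were called lower. It was 1 without KO_2, 2 without WT_3, 0 without WT_1 and 0 without WT_2. With DESeq2 it was 10, where 13.8% of all genes were called in either direction. Without the libraries that hold pancreatic transcripts 0 of the 29 were called. In KI against WT 0 of 29 were called by limma, and 7 had an unadjusted p under 0.05, where 11.6% of all genes did. edgeR called 0 and DESeq2 called 1, where they called 0.00633% and 2.57% of all genes.

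Of 8 genes of amino acid transporters tested, not all of them specific to aromatic amino acids, 1 was called in KO against WT. Of all genes 8.83% were called and 4.63% were called higher. Slc36a4, a transporter that accepts tryptophan, rose to 919, 1298 and 1154 normalized counts in KO, against 623, 610 and 659 in WT (log2 fold change 0.82, limma adjusted p = 0.0112), and the other 7 of 8 were not called. All KO libraries lay above all WT libraries, and the call was lost without KO_2 and without the libraries that hold pancreatic transcripts (limma adjusted p = 0.0793), 2 of the 22 alternatives.

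Known regulators of Tat and Tdo2 were followed as lists. Nr3c1, the glucocorticoid receptor gene, had 4819, 5497 and 4020 normalized counts in KO and 5601, 5813 and 5149 in WT (log2 fold change -0.22, limma adjusted p = 0.357). Of the receptor and 13 targets 1 was called in KO against WT, where 8.83% of all genes were. It was Igfbp1, which encodes a binding protein for insulin-like growth factors. Igfbp1 rose to 2615, 11338 and 10347 in KO, against 693, 860 and 335 in WT (limma adjusted p = 0.0154). KO_1 had the lowest of the KO values. Of these 14 genes edgeR called 1 higher, and DESeq2 called 3 higher and 1 lower, where they called 7.42% and 13.8% of all genes. Without the variance trend 0 were called. In KI against KO 2 of the 14 were called, both lower, where 8.45% of all genes were called. They were Igfbp1 and Ppargc1a (log2 fold changes -3.73 and -1.37, limma adjusted p = 0.0127 and 0.0295). Of 16 hepatocyte transcription factors 1 was called higher, Foxa3, where 4.63% of all genes were, and 1 lower, the nuclear receptor Nr1i3, where 4.20% were (log2 fold changes 0.67 and -1.10, limma adjusted p = 0.018 and 0.00919). In KI against WT limma called neither, with log2 fold changes of 0.58 for Foxa3 and -0.59 for Nr1i3 (limma adjusted p = 0.174 and 0.269). Foxa3 had 3702, 3542 and 3718 in KI and 2458, 2493 and 2385 in WT, so these groups did not overlap, as for 19.6% of all genes. In KO against WT Nr1i3 was called in all 22 alternatives, Igfbp1 in 16 and Foxa3 in 15. Igfbp1 and Foxa3 were both lost without KO_2, without WT_1, without WT_3 and without the libraries that hold pancreatic transcripts (limma adjusted p = 0.0604 and 0.15 in that fit), and Foxa3 was lost without WT_2. For the aryl hydrocarbon receptor, which kynurenine can activate, and its targets, limma called 0 of 9 genes in KO against WT. An unadjusted p under 0.05 was found for 2 of the 9, where 25.0% of all genes had one. edgeR called 0 and DESeq2 1, where they called 7.42% and 13.8% of all genes.

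The genes most like the 3 most variable members were sought among 11445 named genes with a mean of at least 50, as the smallest root mean square difference of centred log2 values over the 9 libraries. Hpd was matched closely, by Agmat, Gls2 and Abat, with differences of 0.13, 0.13 and 0.14. Their means, in the order KO, KI and WT, were 6268, 10294 and 11079 for Agmat, 9008, 11884 and 14658 for Gls2 and 17259, 22941 and 26254 for Abat. Acmsd was matched less closely, by Ppp1r3b, Ass1 and Gstp2 (0.25, 0.30 and 0.33), and Tat by Herpud1, Ect2 and Shroom2 (0.23, 0.24 and 0.24). Among the members themselves the closest pairs were Tdo2 with Haao (0.14) and Hpd with Hgd (0.15), and Kmo with Acmsd was the farthest (0.61).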

How the data were processed

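Liver RNA from 9 mice was made into stranded libraries with a TruSeq mRNA kit, per the labels' protocols. The deposited values are in a unit of signal, normalized counts, that the authors made from TopHat2, Bowtie2 and featureCounts on GRCm38, per the submitters' processing notes; versions, annotation, strand setting and scaling tool are not given in the sources used here. Columns were matched to samples by animal number, and 0 columns were left without a sample. Within a tolerance of 0.0051 units at least 99.995% of the values of each library were whole multiples of 1 step, so whole reads were recovered (size factors 0.8921 to 1.1051). No library repeated another (chi-square per degree of freedom of 62.6 or more within groups).

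Values were tested as log2(value + 1), a scale that understates changes of low genes, in the 15238 genes with a mean of at least 10, with limma 3.58.1 (R 4.3.3, variance trend, all 9 libraries, 6 residual degrees of freedom), two-sided, with Benjamini-Hochberg adjustment over all genes tested. A gene with adjusted p under 0.05 was called. The tests were run on simulated data first. edgeR 4.0.16 and DESeq2 1.42.0 on recovered reads, other pseudocounts, filters and scalings, left-out libraries, a pancreas covariate and a replicate block were alternatives. Ratios were tested by exact permutation (scipy 1.17.1). Exon lengths and coordinates came from GENCODE M21, and promoters from RefSeq tables on GRCm38.p6.

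Named genes are the 9 members, Snd1, the called genes of each list (at most 4 by adjusted p), enzymes at neighbouring steps, markers beside a result and the 3 genes nearest to each of the 3 most variable members. The members and lists were chosen with earlier results of these data known, and the ratios and motifs after values were seen. Of the listed genes 4 were not found in the table, and 1 further gene is not reported here.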

Additional observations from a re-analysis of the deposited data

How the results depend on the processing

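The 0 members called in KO against WT became 1 with DESeq2 and ranged from 0 to 5 over left-out libraries. In KI against KO the 0 became 0 to 3 over left-out libraries, and in KI against WT it was 0 in all 22 alternatives. The 1346 genes called over the whole table in KO against WT became 2211 with DESeq2, 800 without the variance trend, 749 with the pancreas covariate, 226 without the libraries with pancreatic transcripts and 871 with only the 2 groups fitted, and ranged from 501 to 2509 over left-out libraries. For KI against WT the 4 became 1 with edgeR, 362 with DESeq2, 8 without a filter, 7 with a mean of at least 50, 7 with an equal total outside acute phase and pancreas genes, 0 without the trend, 0 with the covariate, 0 without the libraries with pancreatic transcripts and 28 with only the 2 groups fitted, and ranged from 0 to 35. The 1287 of KI against KO became 2240 with DESeq2, 2289 with the equal total, 680 without the trend, 137 with the covariate, 13 without the libraries with pancreatic transcripts and 608 with only the 2 groups, and ranged from 400 to 2299. Without the libraries with pancreatic transcripts KI has 1 library, which is assumed to vary like the other groups. The cause of these changes was not tested.

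Scaling to an equal total outside acute phase and pancreas genes moved the median of all genes from 0 to 0.20 in KO against WT. In KI against KO it moved from 0.01 to -0.26. Calls were then 1172 higher and 394 lower in KO against WT, beside 706 and 640, and 330 higher and 1959 lower in KI against KO, beside 548 and 739. The members' median in KO against WT was then -0.21, beside 0.20 over all genes.

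Of 594 log2 fold changes of members under the alternatives 21 changed sign, and none of the values concerned passed a test. In KO against WT Kynu (-0.05) was 0.03 with edgeR, 0.02 with DESeq2 and 0.15 with the equal total, and -0.36 to 0.15 over left-out libraries. Tat (0.19) was -0.07 with the pancreas covariate and -0.13 without the libraries with pancreatic transcripts, and -0.13 to 0.45 over left-out libraries, and Acmsd (-0.41) was -1.01 to 0.18 over them. In KI against WT Fah (-0.06) was 0.04 with the covariate and 0.12 without the libraries with pancreatic transcripts, and -0.21 to 0.03 over left-out libraries, and Kynu was 0.02 without the libraries with pancreatic transcripts. In KI against KO the equal total gave -0.05 for Kmo, -0.07 for Haao and -0.01 for Fah, and Kynu (-0.20) was 0.01 with the covariate, 0.11 without the libraries with pancreatic transcripts and -0.40 to 0.11 over left-out libraries.

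A replicate block on the title numbers gave 1551, 3 and 1500 genes called in KO against WT, KI against WT and KI against KO, and 0 members in each. The numbers were not taken as pairs: residuals of same-numbered libraries correlated between -0.14 and 0.57, and 3 of 9 libraries correlated best with their own number in both other groups.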
